A study of Mus musculus with 18 samples.

Results

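Chemokines and cytokines are small secreted proteins through which cells call in and instruct other cells. The genes described here are the 45 of 22180 genes on the arrays whose symbol is Ccl or Cxcl followed by a number, or Cx3cl1, together with a fixed set of 13 cytokine genes. They comprise 18 CC chemokine genes, 14 CXC and CX3C chemokine genes, and the cytokine genes Il1a, Il1b, Il1rn, Il6, Il11, Il15, Il33, Lif, Csf1, Csf2, Csf3, Tnf and Tslp. Related genes with other kinds of symbol, such as Pf4, Ppbp, Ccl27a and Xcl1, fall outside that rule. The rule goes by symbol, and for a gene with more than 1 row on the arrays it takes the row with the highest mean signal.

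mRNA was measured in mouse 3T3-L1 preadipocytes carrying lentiviral shRNA against SIRT6 (SIRT6 KD cells, or KD cells) and in WT cells, before adipogenic induction (0 hr) and 20 hr and 40 hr after it. There were 3 arrays in each of the 6 groups. Both genotypes were grown to confluence and induced with insulin, dexamethasone (a synthetic glucocorticoid) and IBMX (a phosphodiesterase inhibitor). By the methods, the cells were cultured in bovine serum and induced in medium with fetal bovine serum. The times after induction are therefore times under these agents and in that medium in both genotypes. Figure legends of the paper place the SIRT6 shRNA 2 days before induction in other assays, and no interval is stated for the cells of the arrays. Whether the WT cells of the arrays carried a control shRNA is not given in the sources used here. The sample labels give the genotypes and the 3 time points but speak of mice given an inhibitor and leave the unit of time out. The cells, the shRNA and the hours were therefore taken from the paper. The arrays describe 1 cell line in culture.

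Adipocytes and their precursors are themselves a source of such signals. CC chemokines mainly attract monocytes, eosinophils and T cells, and CXC chemokines mainly attract neutrophils and lymphocytes. Many of these genes are switched on by the transcription factor NF-kB and damped by glucocorticoids, and several carry binding sites of C/EBP or AP-1 proteins in their promoters.

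Values are log2 signals made by RMA, in which 1 unit is a doubling. Olfactory and vomeronasal receptors, which fibroblasts are not known to use, served as a guide to background. The receptor level, 6.55, is the 95th percentile of the means of 1405 such clusters, and 25 of the 45 genes had a higher mean, against 53.5% of all clusters tested. That mean is over all 18 arrays, and Il6, Il11 and Il33, below the receptor level on every array at 0 hr, exceeded it through the later times. The other 20 genes had a mean at or below it, where a missing signal and a low one cannot be told apart. Cxcl15, 1 of them, was above the receptor level on every array at 0 hr and below it on every later array. Changes were tested with limma over all 23521 clusters with 1 gene symbol, with Benjamini-Hochberg adjustment. A change after induction was called at an adjusted p under 0.05 with a fold above 1.5, and a difference between the genotypes at an adjusted p under 0.05 alone. These p values measure the spread between the arrays of a group, which the methods describe as biological replicates and the labels do not.

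Sirt6 itself had log2 signals of 6.96, 7.21 and 7.03 at 0 hr, 6.73, 6.98 and 6.97 at 20 hr and 7.07, 6.80 and 6.86 at 40 hr in KD cells. In WT cells Sirt6 had log2 signals of 7.17, 7.41 and 7.15 at 0 hr, 6.96, 7.34 and 7.28 at 20 hr and 7.18, 7.08 and 7.13 at 40 hr. The KD arrays lay below all WT arrays only at 40 hr, and no difference was called, the log2 fold change being -0.30 at 20 hr and, at 40 hr, -0.22 (adjusted p = 0.617 and 0.479). The lowest correlation between arrays of a group was 0.9905, and 5 of the 18 arrays lay closer to the other genotype at their time than to their own group. These were all 3 KD arrays at 20 hr, KD replicate 1 at 40 hr and WT replicate 3 at 0 hr. Of the markers measured, 9 of 9 fibroblast markers lay above the receptor level, as did 2 of 12 myeloid, 1 of 7 lymphocyte and 0 of 6 endothelial markers.

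Promoter sequence was read for 31 of the 45 genes from a table of RefSeq genes (mouse GRCm38.p6), as the 250 bases before the start of the gene, and searched on both strands for an NF-kB site (the kappaB motif), a C/EBP site (TTGCNNAA) and an AP-1 site (TGANTCA). The kappaB motif was found before 10 of the 31 genes, and before 8.24% of 27018 genes. The C/EBP letters were found before 4 of the 31 (10.84% of all genes) and the AP-1 letters before 7 (7.82%). A match describes the letters and does not show that a factor binds there. The windows below belong to genes whose signals changed after induction in different directions or at different times, and are written 5′ to 3′ in the direction of transcription, with matched motifs in capitals.
Cxcl13: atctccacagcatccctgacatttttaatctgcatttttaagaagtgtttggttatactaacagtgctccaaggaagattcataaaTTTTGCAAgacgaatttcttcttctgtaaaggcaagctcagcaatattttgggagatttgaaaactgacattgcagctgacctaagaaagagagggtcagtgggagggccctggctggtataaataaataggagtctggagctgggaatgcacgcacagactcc
Il6: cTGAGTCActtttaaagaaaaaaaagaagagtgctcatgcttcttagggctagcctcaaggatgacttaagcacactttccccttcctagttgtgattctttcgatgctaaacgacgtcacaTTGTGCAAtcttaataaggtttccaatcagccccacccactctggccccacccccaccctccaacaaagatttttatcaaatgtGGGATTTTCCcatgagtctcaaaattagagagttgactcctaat
Csf1: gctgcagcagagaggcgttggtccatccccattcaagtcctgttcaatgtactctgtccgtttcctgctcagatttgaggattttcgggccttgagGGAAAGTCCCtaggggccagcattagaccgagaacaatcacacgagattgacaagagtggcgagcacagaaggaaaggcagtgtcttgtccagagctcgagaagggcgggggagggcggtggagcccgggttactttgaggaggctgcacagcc
Ccl9: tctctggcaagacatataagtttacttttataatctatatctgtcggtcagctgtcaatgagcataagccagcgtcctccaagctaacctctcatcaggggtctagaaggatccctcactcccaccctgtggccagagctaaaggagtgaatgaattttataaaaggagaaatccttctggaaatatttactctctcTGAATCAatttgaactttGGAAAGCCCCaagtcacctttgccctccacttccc
Cxcl1: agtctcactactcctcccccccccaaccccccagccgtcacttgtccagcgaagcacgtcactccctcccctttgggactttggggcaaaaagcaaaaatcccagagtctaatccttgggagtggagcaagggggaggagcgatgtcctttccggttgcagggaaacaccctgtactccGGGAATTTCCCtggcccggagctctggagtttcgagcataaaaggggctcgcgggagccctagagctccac
The Cxcl13 window (chr5:95956689-95956938, plus strand) holds a C/EBP match from 164 to 157 bases before the start. The Il6 window (chr5:30012864-30013113, plus strand) holds all 3 motifs, with AP-1 at 249 to 243, C/EBP at 128 to 121 and kappaB at 44 to 35 bases before the start. A single kappaB match stands 154 to 145 bases before Csf1 (chr3:107760470-107760719, minus strand). Ccl9 (chr11:83578637-83578886, minus strand) has AP-1 at 53 to 47 and kappaB at 35 to 26 bases before the start. Cxcl1 (chr5:90890995-90891244, plus strand) has 2 kappaB matches that share 9 bases, at 71 to 62 and 70 to 61. Thus genes with a kappaB match include Il6, which was higher after induction, and Csf1 and Ccl9, which were lower. Besides Cxcl1, the other genes with this match were Ccl1, Ccl20, Cxcl2, Cxcl3, Cxcl10 and Lif. These had means at or below the receptor level and were never called.

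Cxcl13, Il33 and Il6 were higher at 20 hr and 40 hr in both genotypes, Il11 was called higher at 20 hr and not at 40 hr, and Ccl2, Ccl9, Ccl11 and Csf1 were lower at both times. At 20 hr against 0 hr, 9 of the 45 genes (20% of them) were called in KD cells, against 8.48% of all clusters tested, and 10 (22.2%) in WT cells, against 8.95%. At 40 hr against 0 hr, 10 (22.2%) were called in KD cells, against 7.35% of all clusters, and 13 (28.9%) in WT cells, against 7.73%. From 20 hr to 40 hr, 7 (15.6%) were called in each genotype, against 3.41% of all clusters in KD cells and 3.16% in WT cells.

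The calls went both ways. From 20 hr to 40 hr, 2 genes were higher and 5 lower in each genotype, against 0.944% and 2.46% of all clusters in KD cells and 0.969% and 2.19% in WT cells. At 20 hr, 4 genes were higher and 5 lower in KD cells (4% and 4.48% of all clusters), and 4 were higher and 6 lower in WT cells (4.87% and 4.08%). At 40 hr, 3 were higher and 7 lower in KD cells (2.55% and 4.8%), and 5 were higher and 8 lower in WT cells (3.77% and 3.96%). The median log2 fold change of the 45 genes stayed near 0, at -0.01 in KD cells and -0.01 in WT cells at 20 hr (all clusters, 0.03 in KD cells and 0.00 in WT cells). At 40 hr it was 0.04 in KD cells and -0.05 in WT cells (all clusters, 0.04 in KD cells and 0.00 in WT cells). Within a genotype the comparisons share their arrays, so their calls are not independent of each other. Ccl2, Cxcl13, Il33 and Il6 were called in all 6 comparisons, 6 genes in 4 of them, and 30 of the 45 genes in none.

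**Figure D1:**
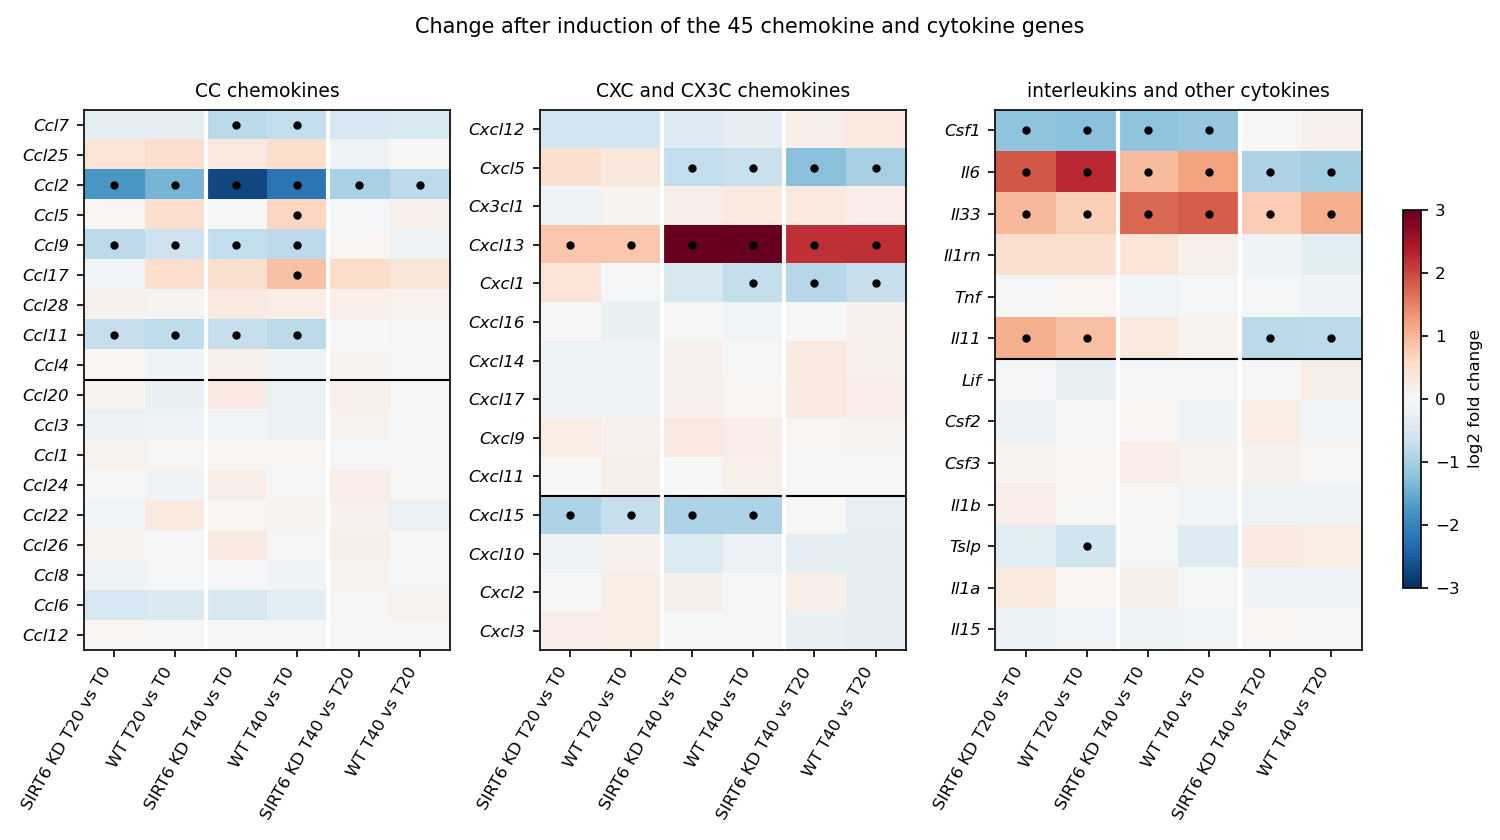
Log2 fold change of the 45 genes in the 6 comparisons between times (columns, SIRT6 KD left of WT), in 3 panels for CC chemokines, CXC and CX3C chemokines, and interleukins and other cytokines. Colour gives the log2 fold change, a dot marks a called change, and the horizontal line parts genes above the receptor level from those at or below it. Cxcl13 and Il33 carry a dot for a rise in every column and Ccl2 a dot for a fall in every column.

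Among the CC chemokines, which attract monocytes, eosinophils and T cells, 3 of 18 were called at 20 hr in each genotype, all lower. Of all clusters, 4.48% in KD cells and 4.08% in WT cells were called lower at that time. Ccl2 encodes MCP-1, which draws monocytes through CCR2. Its log2 signals in KD cells were 10.03, 9.93 and 10.13 at 0 hr, 8.32, 8.41 and 8.12 at 20 hr and 7.34, 7.06 and 7.49 at 40 hr. In WT cells Ccl2 had log2 signals of 9.72, 9.36 and 9.69 at 0 hr, 8.31, 8.12 and 8.11 at 20 hr and 7.36, 7.66 and 7.17 at 40 hr. Within each genotype the 3 times did not overlap, each lower than the one before. At 40 hr against 0 hr the log2 fold change was -2.73 in KD cells (a fold of 6.64, SE 0.132, limma adjusted p = 1.13e-11) and -2.19 in WT cells (a fold of 4.57, adjusted p = 2.49e-10). Most of it was present at 20 hr, with log2 fold changes of -1.75 in KD cells and -1.40 in WT cells. In RNA of a whole culture, fewer cells that make a transcript and less of it per cell cannot be told apart.

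Ccl9, a mouse chemokine that acts through CCR1, had log2 signals of 8.54, 8.34 and 8.33 at 0 hr, 7.75, 7.64 and 7.46 at 20 hr and 7.64, 7.65 and 7.72 at 40 hr in KD cells. In WT cells Ccl9 had log2 signals of 8.14, 8.14 and 8.15 at 0 hr, 7.40, 7.60 and 7.54 at 20 hr and 7.39, 7.46 and 7.22 at 40 hr. Every array after induction lay below every array of its genotype at 0 hr, and most of the fall was present at 20 hr. Its log2 fold change at 20 hr was -0.79 (adjusted p = 1.55e-06) in KD cells and -0.63 (adjusted p = 2.35e-05) in WT cells, the WT call being lost when WT replicate 1 at 20 hr was left out (-0.57, a fold under 1.5). At 40 hr it was -0.73 (adjusted p = 4.23e-06) in KD cells and -0.79 (adjusted p = 1.72e-06) in WT cells.

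Ccl11 (eotaxin, which draws eosinophils through CCR3) followed the same course, with log2 signals of 7.46, 7.67 and 7.60 at 0 hr, 6.82, 7.03 and 6.79 at 20 hr and 6.83, 6.91 and 6.93 at 40 hr in KD cells. In WT cells Ccl11 had log2 signals of 7.35, 7.51 and 7.32 at 0 hr, 6.76, 6.42 and 6.71 at 20 hr and 6.42, 6.54 and 6.83 at 40 hr, and again no array after induction reached the 0 hr arrays of its genotype. The log2 fold changes were -0.70 (adjusted p = 6.77e-05) at 20 hr and -0.69 (adjusted p = 8.65e-05) at 40 hr in KD cells. They were -0.76 (adjusted p = 2.24e-05) at 20 hr and -0.80 (adjusted p = 1.58e-05) at 40 hr in WT cells. Several arrays after induction were close to or below the receptor level, where a fall can be understated.

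Ccl7 (MCP-3), a relative of Ccl2 that also binds CCR2, changed later and less. Its log2 signals were 9.77, 9.85 and 9.88 at 0 hr, 9.51, 9.54 and 9.56 at 20 hr and 8.99, 8.95 and 9.16 at 40 hr in KD cells. In WT cells Ccl7 had log2 signals of 9.82, 9.53 and 9.66 at 0 hr, 9.35, 9.42 and 9.39 at 20 hr and 8.87, 9.02 and 8.90 at 40 hr. The times did not overlap in either genotype, but the fold at 20 hr was under 1.5, with log2 fold changes of -0.30 (adjusted p = 0.00987) in KD cells and -0.28 (adjusted p = 0.0142) in WT cells. By 40 hr the log2 fold change was -0.80 (fold of 1.74, adjusted p = 3.94e-07) in KD cells and -0.74 (fold of 1.67, adjusted p = 1.16e-06) in WT cells.

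In the genome Ccl2 (chr11:82035577-82037452), Ccl7 (chr11:82045712-82047525) and Ccl11 (chr11:82057832-82062955) lie side by side on chromosome 11 in GRCm38.p6, followed by Ccl12 (chr11:82101845-82103399), Ccl8 (chr11:82115185-82116799) and Ccl1 (chr11:82176666-82179812). The first group of genes was lower at 40 hr in both genotypes, while Ccl12, Ccl8 and Ccl1 were at or below the receptor level and were never called. Chromosome 11 holds 15 of the 45 genes, chromosome 5 holds 12 and chromosome 8 holds 5.

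Ccl17 and Ccl5 were the CC chemokines called higher, and in WT cells at 40 hr only. Ccl17 (TARC), which draws T cells through CCR4, had log2 signals of 7.39, 7.42 and 7.41 at 0 hr, 7.34, 7.42 and 7.25 at 20 hr and 7.98, 7.81 and 7.89 at 40 hr in KD cells. In WT cells Ccl17 had log2 signals of 7.37, 6.90 and 7.13 at 0 hr, 7.78, 7.61 and 7.55 at 20 hr and 8.03, 8.14 and 7.84 at 40 hr. The WT arrays were higher at 20 hr than at 0 hr, whereas the KD arrays at these times overlapped. By 40 hr the log2 fold change was 0.49 (fold of 1.4, adjusted p = 0.00164) in KD cells, short of the fold required, and 0.87 (fold of 1.83, adjusted p = 3.3e-06) in WT cells. The difference between these changes was not called (log2 difference -0.38, adjusted p = 0.458).

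Ccl5 (RANTES), which draws T cells and monocytes, had log2 signals of 7.999, 8.12 and 7.88 at 0 hr, 8.23, 7.70 and 8.24 at 20 hr and 7.85, 8.17 and 7.94 at 40 hr in KD cells. In WT cells Ccl5 had log2 signals of 7.68, 7.70 and 7.83 at 0 hr, 8.21, 8.22 and 8.31 at 20 hr and 8.63, 8.50 and 8.03 at 40 hr. The KD arrays overlapped among all 3 times, while each WT array at 40 hr lay above each WT array at 0 hr. Its log2 fold change at 40 hr was -0.01 (adjusted p = 0.963) in KD cells and 0.65 (fold of 1.57, adjusted p = 0.00235) in WT cells, and without WT replicate 1 at 40 hr the WT value was 0.53 and no longer called. Setting one change against the other gave a log2 difference of -0.66 (SE 0.206, unadjusted p = 0.00468, adjusted p = 0.394), so a difference between the genotypes was not called over all clusters.

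The CXC chemokines held the largest rise of the 45 genes. Cxcl13, which draws B cells through CXCR5, had log2 signals of 7.14, 7.16 and 7.06 at 0 hr, 7.96, 8.03 and 7.79 at 20 hr and 9.995, 10.06 and 10.30 at 40 hr in KD cells. In WT cells Cxcl13 had log2 signals of 7.06, 7.15 and 7.29 at 0 hr, 7.88, 7.93 and 8.12 at 20 hr and 10.19, 10.17 and 10.12 at 40 hr. The times did not overlap within either genotype, each higher than the one before, and SIRT6 KD and WT arrays overlapped at each time. At 40 hr the log2 fold change was 2.998 in KD cells (a fold of 7.99, SE 0.0941, limma adjusted p = 3.34e-14) and 2.99 in WT cells (a fold of 7.96, adjusted p = 3.44e-14). At 20 hr the log2 fold change was 0.81 in KD cells and 0.81 in WT cells, so most of the change came after 20 hr, unlike that of Ccl2.

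Cxcl5 (LIX), which draws neutrophils through CXCR2, had log2 signals of 8.97, 8.99 and 8.93 at 0 hr, 9.61, 9.46 and 9.35 at 20 hr and 8.27, 8.31 and 8.11 at 40 hr in KD cells. In WT cells Cxcl5 had log2 signals of 8.90, 9.03 and 9.01 at 0 hr, 9.27, 9.33 and 9.37 at 20 hr and 8.31, 8.48 and 8.17 at 40 hr. All arrays at 20 hr were above, and all arrays at 40 hr below, those at 0 hr of the same genotype. At 20 hr the log2 fold change was 0.51 in KD cells and 0.34 in WT cells, both with a fold under 1.5 (adjusted p = 0.000206 in KD cells and 0.00674 in WT cells). From 20 hr to 40 hr it was -1.24 (fold of 2.37, adjusted p = 5.63e-09) in KD cells and -1.002 (fold of 2.0, adjusted p = 1.24e-07) in WT cells. At 40 hr against 0 hr it was -0.73 in KD cells and -0.66 in WT cells, both called.

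Cxcl1 (KC), also a neutrophil attractant of CXCR2, had log2 signals of 7.91, 7.99 and 7.93 at 0 hr, 8.24, 8.48 and 8.24 at 20 hr and 7.30, 7.47 and 7.62 at 40 hr in KD cells. In WT cells Cxcl1 had log2 signals of 8.14, 7.87 and 8.42 at 0 hr, 8.22, 8.05 and 8.07 at 20 hr and 7.33, 7.33 and 7.61 at 40 hr. Every array at 40 hr lay below every array at 20 hr of its genotype, and at 20 hr the KD arrays lay above the KD arrays at 0 hr while the WT arrays did not. Between 20 hr and 40 hr the log2 fold change was -0.85 (adjusted p = 5.52e-05) in KD cells and -0.69 (adjusted p = 0.000598) in WT cells. At 40 hr against 0 hr it was -0.48 (fold of 1.39, adjusted p = 0.0068) in KD cells, not called for its fold, and -0.72 (fold of 1.65, adjusted p = 0.000158) in WT cells, where leaving out WT replicate 3 at 0 hr gave -0.58 and no call. The difference between these changes was 0.24 (adjusted p = 0.661).

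Cxcl12 (SDF-1), the ligand of CXCR4 and ACKR3, was never called but came close to the required fold. Its log2 signals were 10.90, 11.08 and 10.98 at 0 hr, 10.47, 10.41 and 10.42 at 20 hr and 10.69, 10.67 and 10.43 at 40 hr in KD cells. In WT cells Cxcl12 had log2 signals of 11.01, 10.98 and 10.84 at 0 hr, 10.40, 10.37 and 10.35 at 20 hr and 10.57, 10.64 and 10.80 at 40 hr. All arrays at 20 hr were below those at 0 hr, with log2 fold changes of -0.55 (fold of 1.46, adjusted p = 6.23e-05) in KD cells and -0.57 (fold of 1.48, adjusted p = 3.99e-05) in WT cells, and at 40 hr of -0.38 in KD cells and -0.27 in WT cells. Cxcl15, a mouse chemokine known from the lung, had a mean at or below the receptor level and was lower at 20 hr and 40 hr in both genotypes, with log2 fold changes of -0.92 and -0.93 in KD cells and -0.69 and -0.93 in WT cells. Cxcl5 (chr5:90759298-90761625), Cxcl3 (chr5:90786101-90788093), Cxcl15 (chr5:90794534-90803067), Cxcl1 (chr5:90891245-90893121) and Cxcl2 (chr5:90903899-90905938) share a stretch of chromosome 5, of which Cxcl3 and Cxcl2 were at or below the receptor level and never called.

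**Figure D2:**
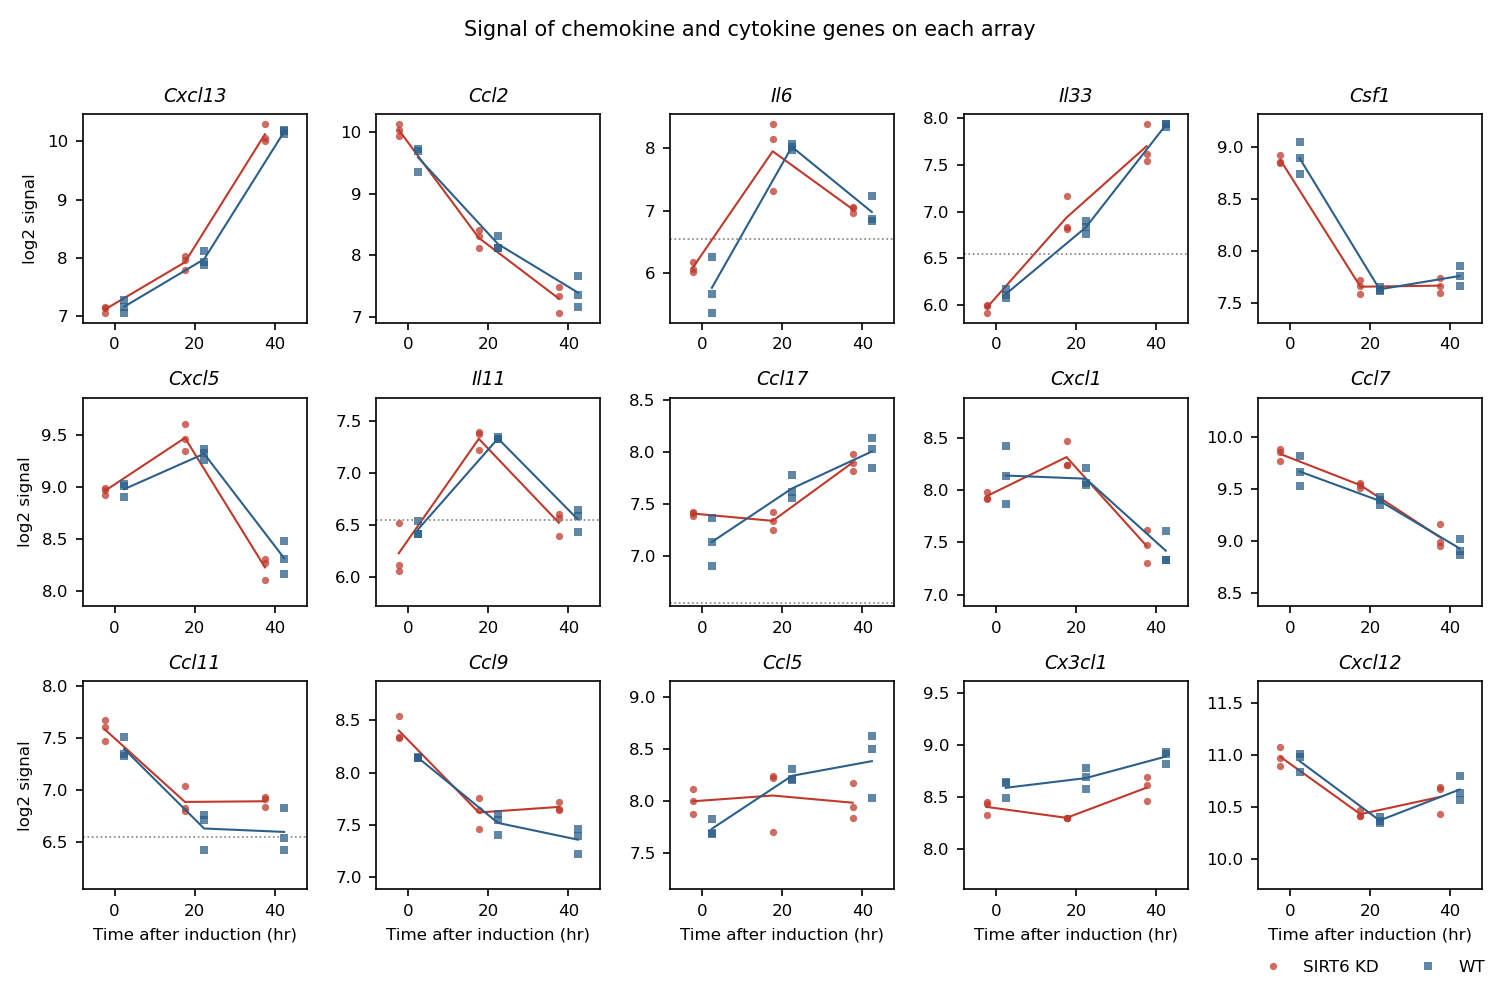
Log2 signal (vertical axis) at 0, 20 and 40 hr after induction (horizontal axis) of 15 genes, with a point for each array (SIRT6 KD circles left, WT squares right), lines through the group means and, where in range, a dotted line at the receptor level of 6.55. Ccl2 and Csf1 fall, Cxcl13 and Il33 rise, and Il6 and Il11 are highest at 20 hr in both genotypes.

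Of the cytokines, Il6, Il11 and Il33 were higher at 20 hr in both genotypes and Csf1 was lower. Il6 and Il11 encode cytokines that signal through the shared receptor chain gp130 (Il6st). Il6 had log2 signals of 6.02, 6.18 and 6.06 at 0 hr, 8.40, 8.15 and 7.32 at 20 hr and 6.97, 7.05 and 7.05 at 40 hr in KD cells. In WT cells Il6 had log2 signals of 5.67, 5.36 and 6.26 at 0 hr, 8.02, 7.97 and 8.08 at 20 hr and 6.83, 7.24 and 6.87 at 40 hr. In both genotypes the arrays at 20 hr were the highest, those at 0 hr the lowest, and the times did not overlap. The log2 fold change at 20 hr was 1.87 in KD cells (a fold of 3.65, SE 0.216, adjusted p = 1.71e-06) and 2.26 in WT cells (a fold of 4.8, adjusted p = 1.42e-07). Between 20 hr and 40 hr it was lower, with a log2 fold change of -0.93 (adjusted p = 0.00679) in KD cells and -1.05 (adjusted p = 0.00276) in WT cells, and at 40 hr it was still above 0 hr, at 0.94 in KD cells and 1.22 in WT cells. Its arrays of one group spread more than those of most other genes here, and at 0 hr its signals were below the receptor level, where the fold can be understated.

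Il11 had log2 signals of 6.52, 6.11 and 6.05 at 0 hr, 7.21, 7.37 and 7.39 at 20 hr and 6.57, 6.39 and 6.60 at 40 hr in KD cells. In WT cells Il11 had log2 signals of 6.54, 6.41 and 6.41 at 0 hr, 7.32, 7.32 and 7.34 at 20 hr and 6.58, 6.64 and 6.43 at 40 hr. Its arrays at 20 hr stood above those of both other times. For 20 hr the log2 fold change was 1.10 (fold of 2.14, adjusted p = 1.38e-07) in KD cells and 0.87 (fold of 1.83, adjusted p = 2.5e-06) in WT cells, again against 0 hr arrays below the receptor level. By 40 hr against 0 hr it was 0.29 (adjusted p = 0.0498) in KD cells and 0.09 (adjusted p = 0.627) in WT cells, neither called.

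Il33, an alarmin of the IL-1 family, had log2 signals of 6.001, 5.996 and 5.92 at 0 hr, 6.81, 7.17 and 6.83 at 20 hr and 7.62, 7.54 and 7.93 at 40 hr in KD cells. In WT cells Il33 had log2 signals of 6.07, 6.17 and 6.11 at 0 hr, 6.76, 6.90 and 6.83 at 20 hr and 7.93, 7.90 and 7.94 at 40 hr. The times did not overlap in either genotype and each was higher than the one before, as for Cxcl13. At 20 hr the log2 fold change was 0.97 in KD cells and 0.71 in WT cells. At 40 hr it was 1.73 (fold of 3.31, adjusted p = 1.47e-10) in KD cells and 1.81 (fold of 3.5, adjusted p = 8.03e-11) in WT cells. As for Il6, every array at 0 hr was below the receptor level, where the fold can be understated.

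Csf1, the growth factor of macrophages, had log2 signals of 8.85, 8.85 and 8.91 at 0 hr, 7.66, 7.72 and 7.58 at 20 hr and 7.60, 7.66 and 7.74 at 40 hr in KD cells. In WT cells Csf1 had log2 signals of 8.89, 8.74 and 9.04 at 0 hr, 7.61, 7.65 and 7.62 at 20 hr and 7.76, 7.85 and 7.66 at 40 hr. Every array after induction lay below every array of its genotype at 0 hr. The 20 hr and 40 hr arrays overlapped in KD cells, and in WT cells those at 40 hr were above those at 20 hr by a small margin. The log2 fold change at 20 hr was -1.22 (fold of 2.32, adjusted p = 1.25e-09) in KD cells and -1.26 (fold of 2.39, adjusted p = 7.55e-10) in WT cells, and at 40 hr -1.21 in KD cells and -1.13 in WT cells. From 20 hr to 40 hr it was 0.01 (adjusted p = 0.965) in KD cells and 0.13 (adjusted p = 0.479) in WT cells. Tslp, an epithelial cytokine that acts on dendritic cells, had a mean below the receptor level and was called lower at 20 hr in WT cells alone. Its log2 fold change there was -0.34 in KD cells and -0.61 (adjusted p = 5.03e-05) in WT cells, the WT value going to -0.55 and its call being lost without WT replicate 2 at 20 hr. The difference between these changes was 0.27 (adjusted p = 0.936).

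Calls were largely shared by the genotypes. At 20 hr, 9 genes were called in both, so that all 9 of the SIRT6 KD calls were among the 10 of WT cells, and Tslp was called in WT cells alone. At 40 hr the 10 genes called in KD cells were among the 13 of WT cells, and Ccl5, Ccl17 and Cxcl1 were called in WT cells alone. Between 20 hr and 40 hr the same 7 genes were called in both. The differences between the SIRT6 KD and WT changes, tested as interaction terms, were called for 0 of 45 genes at 20 hr against 0 hr, at 40 hr against 0 hr and at 40 hr against 20 hr (0% of all clusters in each). At an unadjusted p under 0.05 there were 3 (5.02% of all clusters), 5 (9.37%) and 2 (4.44%) for these comparisons in turn, with smallest adjusted p values of 0.795, 0.394 and 0.998.

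**Figure D3:**
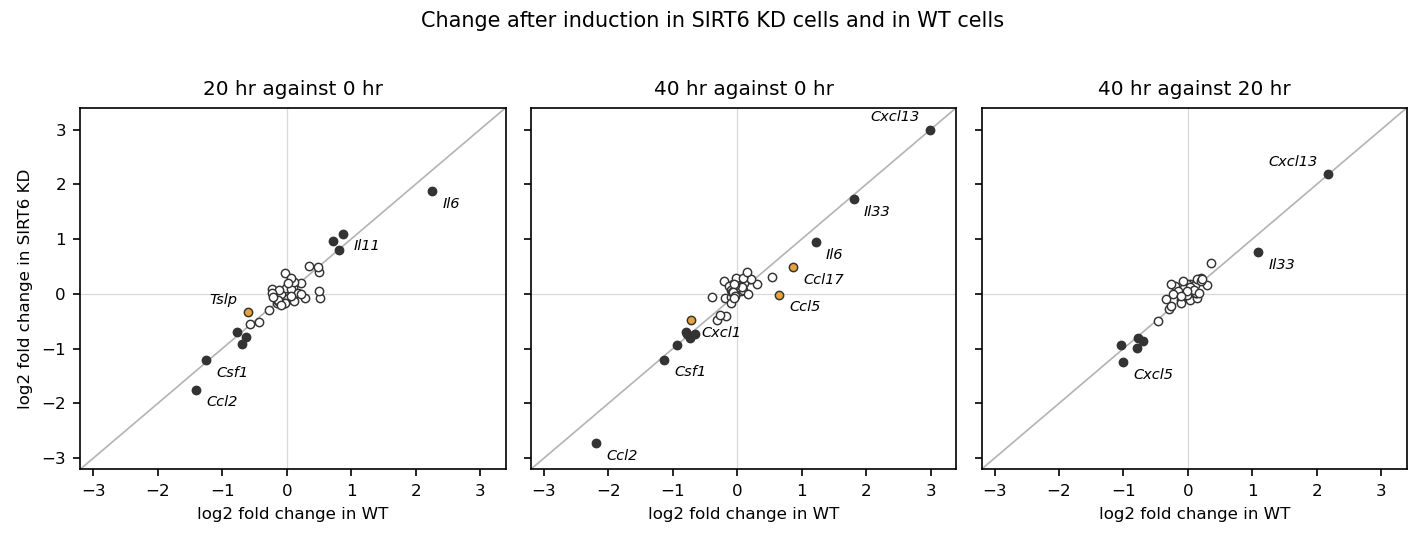
Log2 fold change after induction in KD cells (vertical axis) against that in WT cells (horizontal axis), with a point for each of the 45 genes in each comparison between times and a line of equal change. Black points were called in both genotypes, orange points in 1 and white points in neither, and Cxcl13 at 2.998 and 2.99 and Ccl2 at -2.73 and -2.19 mark the ends at 40 hr.

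Between SIRT6 KD and WT cells few of these genes differed. Cx3cl1 (fractalkine), a chemokine tethered to the cell membrane that binds CX3CR1, was the only gene of the 45 called, over the 3 times together. Its log2 signals were 8.43, 8.45 and 8.32 at 0 hr, 8.29, 8.30 and 8.30 at 20 hr and 8.69, 8.46 and 8.61 at 40 hr in KD cells. In WT cells Cx3cl1 had log2 signals of 8.63, 8.64 and 8.48 at 0 hr, 8.69, 8.57 and 8.77 at 20 hr and 8.91, 8.93 and 8.81 at 40 hr. At each time all KD arrays lay below all WT arrays, as for 0.217% of the clusters tested (0.302% with KD arrays on either side at all 3 times). The log2 fold change over the times was -0.29 (SE 0.046, 95% confidence interval -0.38 to -0.19, a fold of 1.22, adjusted p = 0.00886). At single times it was -0.18 (adjusted p = 0.721) at 0 hr, -0.38 (adjusted p = 0.194) at 20 hr and -0.30 (adjusted p = 0.149) at 40 hr, none of them called.

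With Cx3cl1 counted, 1 of 45 genes was called over the times, against 0.378% of all clusters (0.111% higher and 0.268% lower). At 0 hr 0 genes were called, against 0% of all clusters, at 20 hr 0, against 0.0213% (0.00425% higher and 0.017% lower), and at 40 hr 0, against 0.0935% (0.0723% lower). At an unadjusted p under 0.05 the limma counts were 6 at 0 hr (6.91% of all clusters), 4 at 20 hr (6.65%), 7 at 40 hr (11%) and 6 over the times (11.4%). The arrays of SIRT6 KD and WT cells did not overlap for 10 genes at 0 hr (6 higher and 4 lower in KD cells, against 12.3% of all clusters), 9 at 20 hr (5 higher and 4 lower, against 11.7%) and 5 at 40 hr (4 higher and 1 lower, against 15.9%). Cx3cl1 lies between Ccl22 and Ccl17 on chromosome 8 (chr8:94772180-94782427), and Ccl22 was at or below the receptor level.

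Ccl9 and Ccl11 had higher mean signals in KD cells at each time without passing the test. The same held for other genes of the set, among them Ccl7 and Il1rn. Ccl9 arrays of SIRT6 KD cells lay above those of WT cells at 0 hr and 40 hr, with a log2 fold change over the times of 0.23 (SE 0.052, adjusted p = 0.0724). For Ccl11 they lay above at 20 hr and 40 hr, at 40 hr by under 0.01, with a log2 fold change over the times of 0.25 (SE 0.0631, adjusted p = 0.112). Ccl2 arrays of SIRT6 KD cells lay above those of WT cells at 0 hr only, where the log2 fold change was 0.44 (95% confidence interval 0.17 to 0.72, adjusted p = 0.613), and it was 0.10 at 20 hr and -0.10 at 40 hr. The change of that difference between 0 hr and 40 hr was -0.54 (SE 0.187, unadjusted p = 0.00981, adjusted p = 0.424). Ccl17 was higher in KD cells at 0 hr (log2 fold change 0.27, adjusted p = 0.672) and lower at 20 hr (-0.31, adjusted p = 0.545), without overlap of arrays at either time.

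Cxcl13 illustrates how close the genotypes could be, with log2 fold changes in KD cells against WT cells of -0.05, -0.05 and -0.04 at 0, 20 and 40 hr and 95% confidence intervals of -0.24 to 0.15, -0.25 to 0.15 and -0.24 to 0.15. For Il6 the intervals were wider, -0.13 to 0.77 at 0 hr, -0.52 to 0.38 at 20 hr and -0.41 to 0.50 at 40 hr.

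**Figure D4:**
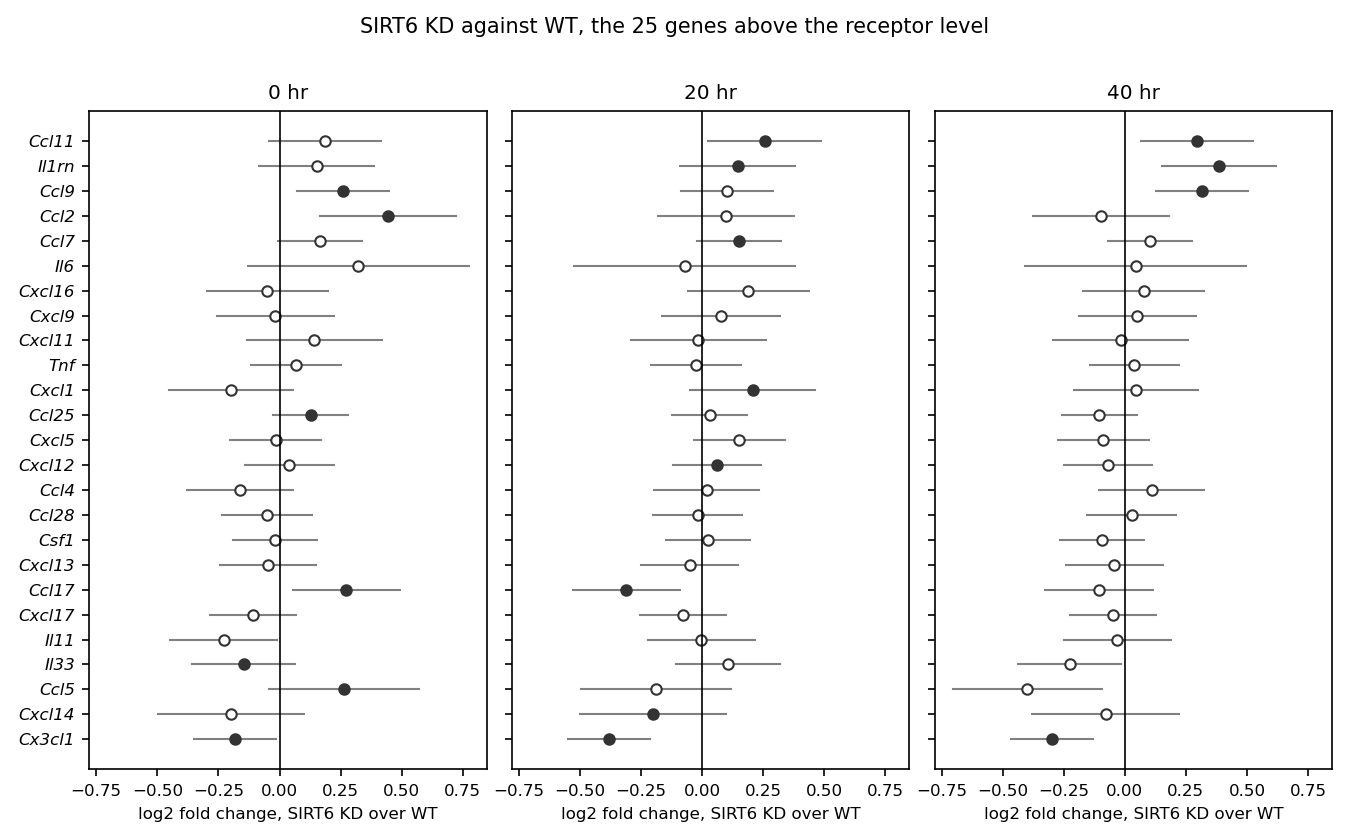
Log2 fold change in KD cells against WT cells (horizontal axis) at 0, 20 and 40 hr (panels) of the 25 genes above the receptor level, with 95% confidence intervals as bars. Filled points mark genes whose KD and WT arrays do not overlap, and Cx3cl1 is filled and below 0 in every panel, at -0.18, -0.38 and -0.30.

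In all, 29 of the 45 genes were never called. Of these, 11 were above the receptor level (Ccl4, Ccl25, Ccl28, Cxcl9, Cxcl11, Cxcl12, Cxcl14, Cxcl16, Cxcl17, Il1rn and Tnf), with log2 fold changes after induction between -0.57 and 0.53. Il1rn, the natural antagonist of the IL-1 receptor, had log2 signals of 6.93, 6.53 and 6.36 at 0 hr, 7.19, 7.09 and 7.01 at 20 hr and 7.08, 6.95 and 6.97 at 40 hr in KD cells. In WT cells Il1rn had log2 signals of 6.56, 6.31 and 6.504 at 0 hr, 6.996, 6.86 and 6.99 at 20 hr and 6.62, 6.55 and 6.68 at 40 hr. The KD arrays were above the WT arrays at 20 hr and 40 hr, and Il1rn showed the largest difference between genotypes among genes never called, 0.39 at 40 hr (SE 0.112, adjusted p = 0.192). Its changes at 20 hr, 0.48 (adjusted p = 0.00275) in KD cells and 0.49 (adjusted p = 0.00234) in WT cells, fell short of the fold. Ccl25, a thymic chemokine of CCR9, did likewise, with log2 fold changes of 0.41 and 0.30 at 20 hr and 40 hr in KD cells and 0.50 and 0.53 in WT cells. Tnf, the prototype of inflammatory cytokines, stayed between 6.58 and 6.88 on all 18 arrays.

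The remaining 18 were at or below the receptor level (Ccl1, Ccl3, Ccl6, Ccl8, Ccl12, Ccl20, Ccl22, Ccl24, Ccl26, Cxcl2, Cxcl3, Cxcl10, Csf2, Csf3, Il1a, Il1b, Il15 and Lif), with log2 fold changes after induction between -0.51 and 0.30. Il1b was between 5.31 and 5.82 and Il1a between 4.91 and 5.49 on all arrays, so that neither IL-1 gene reached the receptor level at any time. Among all genes never called, the 2 with the largest log2 fold change between genotypes at 0 hr were Csf3 (G-CSF), -0.23 (adjusted p = 0.744), and Ccl20, -0.22 (adjusted p = 0.798). At 20 hr they were Cxcl2, -0.34 (adjusted p = 0.727), and Csf3, -0.22 (adjusted p = 0.819). At 40 hr Il1rn was followed by Ccl26, 0.24 (adjusted p = 0.513), and Ccl20 had 0.23 (adjusted p = 0.636), opposite in sign to its value at 0 hr. Csf3 arrays of SIRT6 KD cells lay below those of WT cells at 0 hr, with log2 signals of 5.72, 5.79 and 5.67 in KD cells and 6.10, 5.94 and 5.84 in WT cells, all under the receptor level.

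Receptors of these signals were taken as a list of their own. Of 17 cytokine receptor genes measured, 4 were called higher at 20 hr in each genotype, 3 in KD cells and 7 in WT cells at 40 hr, and 0 lower. Of all clusters, 4% in KD cells and 4.87% in WT cells were called higher at 20 hr, and 2.55% and 3.77% at 40 hr. The median log2 fold change of the 17 genes was 0.23 in KD cells and 0.37 in WT cells at 20 hr. At 40 hr it was 0.26 in KD cells and 0.39 in WT cells. Il15ra, which holds IL-15 at the cell surface for other cells, had log2 signals of 7.26, 7.03 and 6.97 at 0 hr, 8.63, 8.50 and 8.43 at 20 hr and 9.32, 9.30 and 9.31 at 40 hr in KD cells. In WT cells Il15ra had log2 signals of 7.13, 7.10 and 7.19 at 0 hr, 8.65, 8.72 and 8.70 at 20 hr and 9.21, 9.15 and 9.24 at 40 hr. The times did not overlap and each was higher than the one before, with log2 fold changes at 40 hr of 2.22 in KD cells (a fold of 4.67, SE 0.0792, adjusted p = 1.77e-13) and 2.06 in WT cells (a fold of 4.16, adjusted p = 4.29e-13). Its ligand Il15 was among the genes at or below the receptor level and was never called.

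Tnfrsf1a, a receptor of TNF, was called in WT cells only, with log2 fold changes of 0.52 (adjusted p = 0.000152) in KD cells and 0.79 (adjusted p = 9.31e-07) in WT cells at 20 hr, and a log2 difference between them of -0.28 (adjusted p = 0.936). Il1r2, a decoy receptor of IL-1 with a mean below the receptor level, was called at both times in KD cells (0.89 and 0.88) and at 40 hr in WT cells (0.47 and 0.82). Osmr, which pairs with gp130 as a receptor of oncostatin M, had log2 fold changes at 20 hr of 0.65 (adjusted p = 8.9e-07) in KD cells and 0.72 (adjusted p = 2.35e-07) in WT cells. Of 22 chemokine receptor genes measured 7 were above the receptor level. The only call was Cxcr6, whose mean was below that level, lower at 20 hr in WT cells, where 4.08% of all clusters were called lower. Its log2 fold change was -0.43 (adjusted p = 0.024) in KD cells and -0.63 (adjusted p = 0.00148) in WT cells. No gene of either receptor list was called between genotypes.

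**Figure D5:**
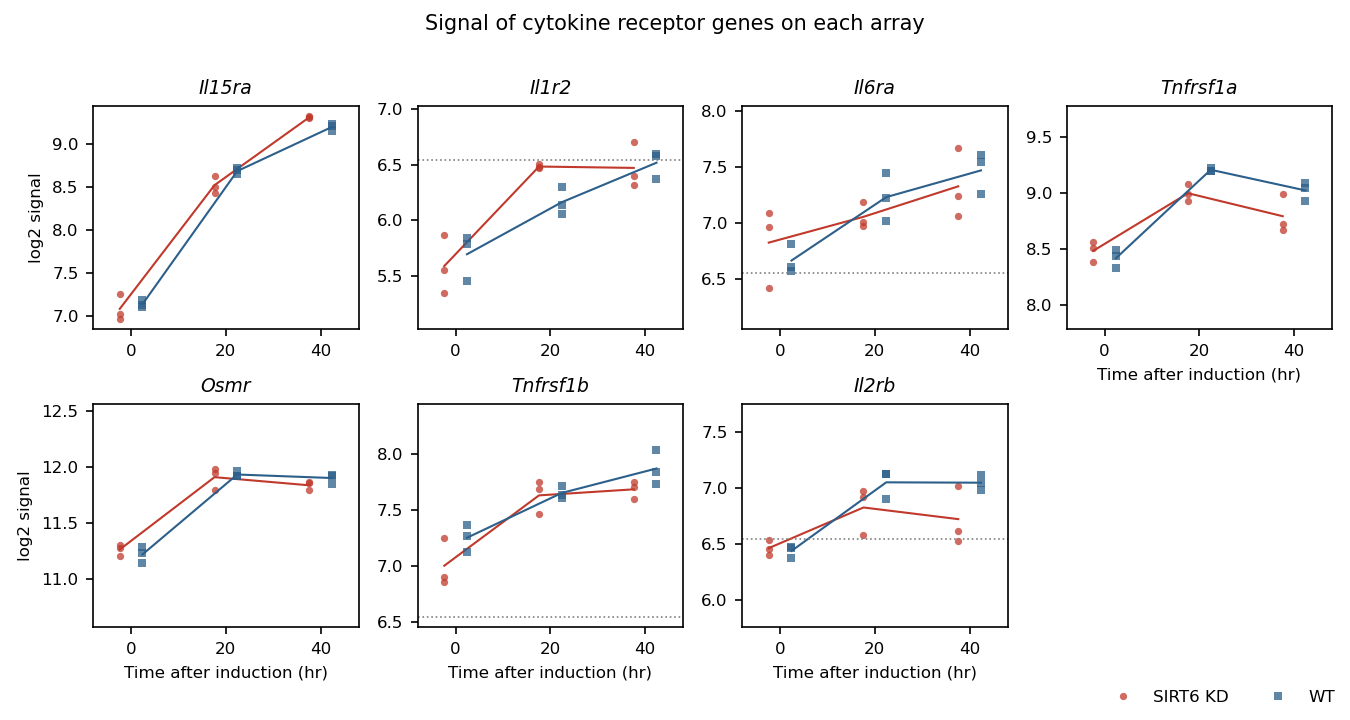
Log2 signal (vertical axis) at 0, 20 and 40 hr after induction (horizontal axis) of the 7 cytokine receptor genes called in a comparison, with a point for each array (SIRT6 KD circles left, WT squares right) and lines through the group means. Il15ra rises at each step in both genotypes.

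Genes that respond to the pathways around these signals went different ways. Of 14 NF-kB genes measured, Sod2, a mitochondrial superoxide dismutase, was the 1 called higher and Vcam1, an adhesion molecule for leukocytes, the 1 called lower, at both times in both genotypes. The log2 fold change of Sod2 at 20 hr was 1.40 (adjusted p = 1.05e-10) in KD cells and 1.65 (adjusted p = 1.17e-11) in WT cells, and that of Vcam1 at 40 hr was -1.62 (adjusted p = 3.95e-11) in KD cells and -1.58 (adjusted p = 6.19e-11) in WT cells. The median log2 fold change of the list at 20 hr was -0.13 in KD cells and -0.14 in WT cells. Of 10 glucocorticoid targets, 7 were called higher at 20 hr in KD cells and 6 in WT cells, against 4% and 4.87% of all clusters. At 40 hr 7 were called higher in KD cells and 8 in WT cells, against 2.55% and 3.77%. The median log2 fold change of the 10 targets at 40 hr was 0.79 in KD cells and 0.82 in WT cells. Zbtb16 and Fkbp5 led them, with log2 fold changes at 40 hr of 2.52 and 2.30 in KD cells and 2.47 and 2.35 in WT cells.

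Interferon-stimulated genes fell where they were called. Of 16 measured, 6 were lower at 20 hr in each genotype, against 4.48% of all clusters in KD cells and 4.08% in WT cells. At 40 hr 8 were lower in KD cells and 5 in WT cells, against 4.8% and 3.96% of all clusters, with 0 higher. The median log2 fold change of the 16 genes at 40 hr was -0.56 in KD cells and -0.37 in WT cells. Ifit3 had log2 fold changes at 40 hr of -2.20 (adjusted p = 1.92e-05) in KD cells and -2.13 (adjusted p = 2.62e-05) in WT cells, and Ifit2 had -1.31 in KD cells and -1.68 in WT cells. Cxcl9, Cxcl10 and Cxcl11, chemokines induced by interferon, were not called. Cxcl10, with a mean below the receptor level, had arrays at 40 hr below those at 0 hr in both genotypes. Its log2 fold change in KD cells was -0.41 (limma adjusted p = 0.00668), short of the fold required. Cxcl9 arrays at 40 hr lay above those at 0 hr in KD cells only, and Cxcl11 arrays overlapped in both genotypes. Of 9 adipocyte genes, 6 were higher at 40 hr in KD cells and 5 in WT cells, against 2.55% and 3.77% of all clusters. The median log2 fold change of the 9 genes was 0.71 in KD cells and 0.81 in WT cells. In KD cells the log2 fold changes at 40 hr were 1.96 for Retn (resistin), 1.38 for Fabp4 and 1.32 for Cd36, and in WT cells 1.64 for Retn, 1.45 for Fabp4 and 1.89 for Cd36. At 20 hr the single calls were Retn higher (0.85) and Lpl lower (-0.69) in KD cells and Scd1 higher (0.61) in WT cells. Shares of all clusters called at that time were 4% higher and 4.48% lower in KD cells and 4.87% higher in WT cells.

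Markers of other cell types were checked beside the falling CC chemokines and Csf1. Of 12 myeloid markers, Lyz2 (lysozyme) and Aif1 were called lower at both times in both genotypes. Of all clusters, 4.48% in KD cells and 4.08% in WT cells were called lower at 20 hr, and 4.8% and 3.96% at 40 hr. Lyz2 had log2 fold changes at 40 hr of -2.70 (adjusted p = 9.76e-12) in KD cells and -2.56 (adjusted p = 1.96e-11) in WT cells, and Aif1 had -0.70 in KD cells and -1.07 in WT cells. The summed linear signal of the 12 genes was 1257 to 1316 at 0 hr, 911.2 to 920.5 at 20 hr and 854.1 to 893.2 at 40 hr in KD cells, and 1253 to 1402, 869.1 to 911.2 and 856.8 to 884.5 in WT cells. Most of the fall of this sum was that of Lyz2. Cd68, the other myeloid marker above the receptor level, did not fall with it. Its mean log2 signals at 0, 20 and 40 hr were 7.81, 7.80 and 7.80 in KD cells and 7.68, 7.78 and 7.84 in WT cells. The defining markers Ptprc (CD45), Adgre1 and Itgam were below the receptor level, and the part of these markers in the falls of Ccl2, Ccl9, Ccl11 and Csf1 was not tested. Of 9 fibroblast markers Pdgfrb and Col1a1 were also lower at both times, with log2 fold changes at 20 hr of -1.50 and -0.79 in KD cells and -1.62 and -0.83 in WT cells. None of 7 lymphocyte and 6 endothelial markers was called in any comparison, and no gene of these lists was called between genotypes.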

How the data were processed

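RNA of SIRT6 KD and WT 3T3-L1 cells at 0, 20 and 40 hr of induction was isolated with Trizol and an RNeasy kit and hybridised to Mouse Gene 2.0 ST arrays, 3 per group. The deposited log2 values were made by the authors with RMA (background correction, quantile normalization, median polish), whose version is not given in the sources used here, and hold 1 value per transcript cluster and array. Quantile normalization gives all arrays 1 distribution, so changes are relative to the other clusters. Of 41345 clusters, 16004 without a symbol and 1820 with several were left out.

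The 6 groups were fitted together over 23521 clusters with limma 3.58.1 in R 4.3.3 (lmFit, eBayes; 12 residual and 6.37 prior degrees of freedom), without a filter on signal and with Benjamini-Hochberg adjustment for each of 13 comparisons. The methods name a one-way analysis of variance, which was run as an alternative in its unmoderated form. For a gene with more than 1 cluster the one brightest on average was taken. The number of arrays limits the precision.

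The 45 genes, the lists and the tests were chosen with earlier results of these data known. Values per array are given for genes called in a comparison with a mean above the receptor level and for genes called between genotypes. Of genes never called, those with the 2 largest differences in each comparison of the genotypes are named, and of each list the called genes with the largest rises and falls, up to 2 of each. Cxcl12, Ccl25, Tnf, Il1a, Il1b, Cxcl15, Tslp and Osmr were described beside these after their values were seen. Alternatives were another variance prior, an unmoderated test, the replicate number as a block, median centring, cyclic loess, a filter on dim clusters, other call rules, and the fit without each of the 18 arrays.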

Additional observations from a re-analysis of the deposited data

Results flagged for a closer look

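Ccl17 was the result marked for a closer look, because its difference between SIRT6 KD and WT cells had opposite directions at 2 times. At 0 hr every SIRT6 KD array lay above every WT array, and at 20 hr every SIRT6 KD array lay below every WT array. The log2 difference between SIRT6 KD and WT cells changed by -0.58 between 0 hr and 20 hr (SE 0.148, unadjusted p = 0.000926). After adjustment over 23521 clusters with limma the p was 0.795, so the difference between the times was not called.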

How the results depend on the processing

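Of 1589 alternative values for 57 results on single genes, 1547 kept their direction and their side of the threshold, 42 lost the call and none changed direction. Lost calls apart from those of the stricter fold were Ccl9 at 20 hr in WT cells under median centring (-0.54), Tslp at 20 hr in WT cells under median centring and cyclic loess (-0.52 and -0.57), Cx3cl1 under an unadjusted p with a fold above 1.5, and, without 1 array, Cxcl1 and Ccl5 at 40 hr and Ccl9 and Tslp at 20 hr in WT cells, with the arrays named above. Leaving out each array in turn kept 1022 of 1026 values.

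The count of genes called between SIRT6 KD and WT cells over the times, 1 in the reported fit, was 2 with a trend and robust prior and 2 among clusters above the receptor level, Ccl9 being the other gene (adjusted p = 0.0435 and 0.0267). It was 0 with an unadjusted p and a fold above 1.5, and 1 to 2 when each array was left out, Ccl9 passing without SIRT6 KD replicate 3 at 20 hr (adjusted p = 0.0393). Cx3cl1 kept an adjusted p between 0.0019 and 0.0299 over its alternatives. Without a limit on the fold, 17 genes in KD cells and 18 in WT cells were called at 20 hr and 19 in KD cells at 40 hr. With a fold above 2, the calls at 20 hr were 4 in KD cells and 3 in WT cells, at 40 hr 4 in KD cells and 5 in WT cells, and from 20 hr to 40 hr 2 in KD cells and 4 in WT cells. Under an unadjusted p and a fold above 1.5, the difference between the KD and WT changes from 0 hr to 40 hr was called for 1 gene, Ccl5. Leaving out each array gave 9 to 11 calls at 20 hr in each genotype, 10 at 40 hr in KD cells and 12 to 13 in WT cells, and from 20 hr to 40 hr 7 to 8 in KD cells and 7 in WT cells. The scalings moved the median of all clusters by at most 0.0865 on the log2 scale.

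Deviations of arrays from their group means had a median r of -0.016 (highest 0.179) over 45 pairs with the same replicate number. Over 90 pairs with other numbers it was 0.003 (highest 0.261). A median over all pairs and clusters cannot exclude a pairing within a time or in part of the clusters. With the replicate block the counts at 20 hr, at 40 hr and between them were 9, 10 and 7 in KD cells and 10, 13 and 7 in WT cells, and 1 gene was called over the times, as without the block. Between genotypes at single times and for the differences between times the block called 0. Genes at or below the receptor level, 20 of the 45, are limited by signal over background.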
